A study of Mus musculus with 74 samples.

Results

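The genes described here are 35 markers of endothelial cells, the cells that line blood and lymph vessels. They were taken as a fixed list of symbols, and each was read from its probe set with a single gene symbol and the highest mean over all arrays. All 35 were measured, of 18193 genes on the array, and 20 of them had 1 such probe set (at most 5). RNA came from male B6C3F1 mice and was measured on 74 Affymetrix mouse arrays, 1 for each mouse and tissue. White fat came from mice fed fenretinide, a synthetic retinoid, at 500 mg/kg in the diet, and from mice given its vehicle, with 3 mice in each group on day 15 and 4 on day 29. Brown fat and liver came from mice given troglitazone, an activator of PPARγ, at 1200 mg/kg by the oral route. A further set of livers came from mice given Elmiron, a sulfated polysaccharide drug, at 1000 mg/kg orally. In these 2 studies each tissue was taken from 5 mice on vehicle and 5 on the compound at day 15, and from as many at day 29. Each compound had a study and vehicle mice of its own, and the labels give neither the age of the mice nor a batch. Hemangiosarcomas, tumours of endothelial cells, arise in these tissues, and the study asked when proliferative or hypoxic changes appear before them.

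Endothelial cells are held together by junction proteins and carry glycoproteins on the side that faces the blood. Transcription factors of the ETS family keep their genes active, and receptors for growth factors, lipids and guidance cues set how vessels sprout and mature. The endothelium differs between organs: the sinusoids of the liver are open and scavenge from the blood, whereas capillaries of fat take up fatty acids through a closed lining. The list also holds genes of the lymphatic endothelium. Some of its genes are active in other cells too, such as Prox1 in hepatocytes, Cav1 in adipocytes, Mcam in pericytes, and Lyve1 and Stab1 in macrophages. Whole tissues were measured, so fewer endothelial cells and less RNA per endothelial cell cannot be told apart in any result below.

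The 250 bases before the start site of 3 genes are shown because these genes rose together in white fat on day 15 of fenretinide. The sequences are from RefSeq on GRCm38.p6, written 5′ to 3′ on the gene's own strand. Emcn codes for the sialomucin endomucin of capillaries and veins, Clec14a for a lectin-like receptor, and Gja4 for an arterial gap junction protein. The stretches lie at chr3:137340828-137341077 (plus strand), chr12:58269259-58269508 (minus strand) and chr4:127314040-127314289 (minus strand), and the annotated Emcn gene begins at 137341062, inside the end of its stretch. Capitals mark a match, on the opposite strand, to CAGGAAG, which holds the GGAA core that ETS factors bind.
Emcn: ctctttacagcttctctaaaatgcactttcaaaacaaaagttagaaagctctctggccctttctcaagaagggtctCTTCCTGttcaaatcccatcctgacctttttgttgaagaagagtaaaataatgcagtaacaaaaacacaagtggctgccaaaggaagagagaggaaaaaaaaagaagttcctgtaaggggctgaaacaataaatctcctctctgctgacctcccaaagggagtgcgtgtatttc
Clec14a: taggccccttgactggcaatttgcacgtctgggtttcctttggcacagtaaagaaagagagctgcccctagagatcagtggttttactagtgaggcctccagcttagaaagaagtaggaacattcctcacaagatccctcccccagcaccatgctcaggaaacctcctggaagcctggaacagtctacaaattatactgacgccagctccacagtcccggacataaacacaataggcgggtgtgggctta
Gja4: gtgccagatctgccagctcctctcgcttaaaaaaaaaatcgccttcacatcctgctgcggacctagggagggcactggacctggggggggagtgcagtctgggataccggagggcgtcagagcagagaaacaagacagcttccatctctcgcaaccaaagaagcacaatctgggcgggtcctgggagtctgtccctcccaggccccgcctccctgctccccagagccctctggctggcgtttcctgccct
Both strands were searched for CAGGAAG and for CCGGAAG, which differ in 1 letter and cannot share a position. CAGGAAG occurred in 6 of the 21 marker genes with an entry, or 28.6%, namely Cd34, Egfl7, Emcn, Erg, Robo4 and Stab1, and in 12.1% of the 27025 genes in the table. CCGGAAG occurred in 0 of the 21 and in 7.83% of all genes. A match describes the letters only, and nothing was tested about binding.

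Most libraries carried the tissue of their label. Adipocyte genes averaged 13.19 to 13.89 (log2 intensity) in white fat, and hepatocyte genes 14.61 to 14.78 in liver. In brown fat, brown adipocyte genes averaged 12.01 to 12.56 in 18 libraries. The libraries labelled brown fat of vehicle mouse 82 and of troglitazone mouse 95, both from day 29, went against their label. Their brown adipocyte genes averaged 7.73 and 8.56, their mesothelium genes 9.39 and 8.26 (6.04 to 6.40 in the other brown fat), and mouse 82 also had hepatocyte genes at 12.44 (at most 8.57 in the other 18). Most brown fat results below are therefore given with and without them. In white fat on day 29, hepatocyte genes averaged 10.71 in mouse 86 (vehicle), and 9.58 and 11.88 in mice 93 and 95 (fenretinide). Brown adipocyte genes reached 11.40 in mouse 93, and 9.88, 9.44 and 9.47 in mice 85, 86 and 91.

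**Figure D1:**
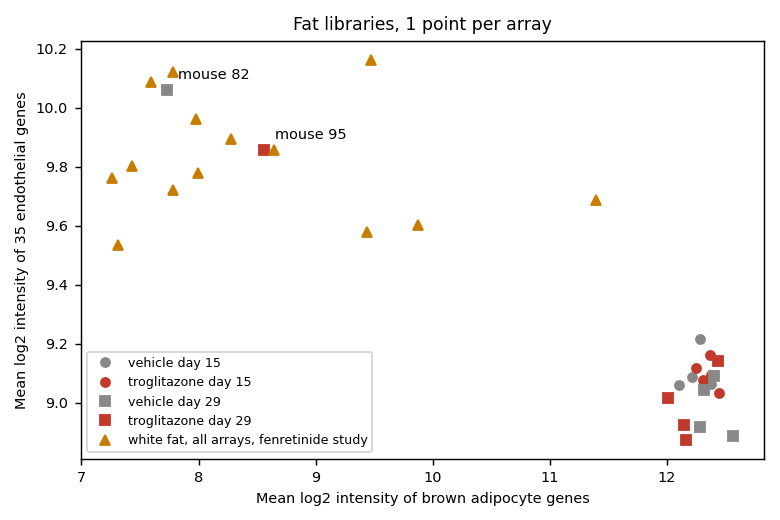
Each point is 1 fat array, with the mean log2 intensity of the brown adipocyte genes on the horizontal axis and that of the 35 endothelial genes on the vertical axis. The libraries labelled brown fat of mice 82 and 95 lie at 10.06 and 9.86 on the vertical axis, among the white fat arrays and above the 8.88 to 9.22 of the other brown fat.

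In vehicle mice the 35 endothelial genes were mostly higher in fat than in liver, and higher in white than in brown fat. Averaged over the 35 genes, all 14 white fat arrays, treated ones included, lay between 9.53 and 10.16, the 18 brown fat arrays between 8.88 and 9.22, and the 40 livers between 7.47 and 8.26. The tissues did not overlap once the libraries labelled mice 82 and 95 were set aside. Tests of brown or white fat against liver used the 10 vehicle livers of the troglitazone study, whereas liver levels are over all 20 vehicle livers unless stated. Between brown fat and liver of vehicle mice (10 arrays each), 25 genes were called higher and 4 lower in brown fat by limma at an adjusted p below 0.05, when 76.1% of all genes were called (31.7% higher and 44.3% lower). The median difference of the 35 was 1.21, against -0.13 over all genes. Without mouse 82, 24 were called higher and 5 lower (76.1% of all genes, 32.1% higher and 44.1% lower). White fat against brown fat gave 19 higher and 1 lower, when 57.3% of all genes were called (28.9% higher and 28.4% lower). Without mouse 82 it gave 20 higher and 1 lower, when 64.2% were called (30.9% and 33.3%). White fat (7 arrays) against the same 10 livers gave 27 higher and 3 lower (81.7% of all genes called, 33.4% higher and 48.3% lower). White fat came from another study than the other tissues, so there the tissue and the study cannot be told apart. All differences between tissues also assume that the arrays were normalized together, which the sources used here do not state.

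All 7 junction and surface genes were called higher in brown fat than in liver. Pecam1, an adhesion molecule of endothelial junctions, had a level of 9.82 ± 0.34 (SD, n = 10) in brown fat, 9.72 ± 0.16 (n = 9) without mouse 82, 6.78 ± 0.26 (n = 20) in liver and 10.15 ± 0.19 (n = 7) in white fat. In the 10 livers of the troglitazone study Pecam1 was at 6.74 ± 0.22, which gave a brown minus liver difference of 3.08 ± 0.12 (SE), and no vehicle liver reached the lowest brown fat library. Cdh5, the cadherin of endothelial junctions, was at 9.73 ± 0.22 in brown fat, 7.56 ± 0.31 in liver and 9.83 ± 0.23 in white fat. Brown and white fat overlapped for Cdh5, with a difference of 0.11 ± 0.12 (adjusted p = 0.445). The second of its 2 probe sets had a difference of the opposite sign, -0.32. Cd34, a sialomucin of small vessels and of stromal cells in fat, was lowest in liver at 5.80 ± 0.28, with 9.80 ± 0.73 in brown and 11.25 ± 0.32 in white fat. Its 3 tissues did not overlap once mouse 82 was left out.

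Cav1 also set the 3 tissues apart, and Mcam did so once mouse 82 was left out. Cav1, which coats caveolae, was at 14.45 ± 0.05 in white fat, 13.45 ± 0.33 in brown fat and 7.44 ± 0.22 in liver. Mcam, an adhesion molecule of vessel walls, was at 12.31 ± 0.23 in white fat, 7.73 ± 0.18 in liver and 9.63 ± 0.95 in brown fat, where 9.34 ± 0.16 remained without mouse 82. White minus brown was 2.68 ± 0.25 for Mcam, 2.26 ± 0.31 for Lyve1, a hyaluronan receptor of lymphatic and sinusoidal endothelium, and 1.72 ± 0.34 for Vwf, the clotting factor stored in endothelial cells. These were the largest of the 19 genes called higher in white than in brown fat, and all were as large or larger without mouse 82 (2.98, 2.54 and 2.07). In the same comparison 11 of 12 macrophage genes (median 1.44) and 7 of 7 mesothelium genes (median 2.70) were called higher in white fat. Of the 10 pericyte and smooth muscle genes, 3 were called higher and 4 lower. The part of these in the endothelial values was not tested.

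Of the 4 sinusoidal and lymphatic markers, Stab2 and Prox1 were called lower in brown fat than in liver, Lyve1 was called higher and Stab1 was not called. Stab2, a scavenger receptor of sinusoidal endothelium, was at 9.64 ± 0.27 in liver, 6.27 ± 0.30 in brown fat and 6.14 ± 0.20 in white fat. Its liver values of 9.07 to 10.05 lay above every fat library, and the fat tissues overlapped (white minus brown -0.15 ± 0.13, adjusted p = 0.316). Stab1, its close relative, had 8.34 ± 0.25 in the 10 livers of the troglitazone study and 8.49 ± 0.35 in brown fat, a difference of 0.16 ± 0.11 that was not called (adjusted p = 0.213). It was called higher in white fat, at 9.24 ± 0.16, than in liver (0.88 ± 0.13, adjusted p = 1.60e-07). Lyve1 had 8.01 ± 0.46 in liver, 8.71 ± 1.08 in brown fat and 10.99 ± 0.40 in white fat. Brown minus liver was 0.67 ± 0.28 for Lyve1 (adjusted p = 0.0289) and was not called without mouse 82 (0.38 ± 0.20, adjusted p = 0.0785), and white minus liver was 2.92 ± 0.31 (adjusted p = 2.31e-10). Prox1, a factor of lymphatic endothelium and of hepatocytes, was at 7.15 ± 0.34 in liver, 6.29 ± 0.36 in brown and 5.81 ± 0.23 in white fat. Plvap, which forms the diaphragms of fenestrae and caveolae, was lower in brown fat (8.86 ± 0.86, or 8.63 ± 0.45 without mouse 82) than in liver (9.97 ± 0.31) and in white fat (10.13 ± 0.32), and liver and white fat overlapped.

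Some other genes hardly set the tissues apart, and others differed between fat and liver. S1pr1, a receptor for a blood lipid, had 9.74 ± 0.19 in brown fat, 9.51 ± 0.28 in liver and 9.79 ± 0.22 in white fat, with no pair of tissues called. Gja4 and Clec14a also differed between no tissues by the test with all libraries. The 2 probe sets of Clec14a had brown minus liver differences of -0.36 and -0.14, and 1 of them was called lower. Nos3, which makes nitric oxide, was at 10.52 ± 0.15 in brown and 10.62 ± 0.23 in white fat but 7.77 ± 0.28 in liver. All 4 transcription factor genes (Erg, Fli1, Ets1 and Tal1) were called higher in brown fat than in liver, from 0.53 ± 0.15 for Erg to 1.94 ± 0.10 for Fli1.

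Without mouse 82, the 9 other brown fat libraries gave 9.67 ± 0.12 for Cdh5, 9.61 ± 0.43 for Cd34, 13.35 ± 0.07 for Cav1 and 10.51 ± 0.16 for Nos3. They gave 6.24 ± 0.29 for Stab2, 8.39 ± 0.16 for Stab1, 6.35 ± 0.31 for Prox1 and 9.74 ± 0.20 for S1pr1. White minus brown was then 0.16 ± 0.11 for Cdh5 (adjusted p = 0.219) and -0.10 ± 0.12 for Stab2 (adjusted p = 0.479), and brown minus liver was 0.04 ± 0.08 for Stab1 (adjusted p = 0.660) and 0.43 ± 0.13 for Erg (adjusted p = 0.00458).

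Over the list, 26 genes had the order white fat, brown fat, liver by their means (27 without mouse 82). Liver had the highest mean for Stab2 and Prox1, with brown fat next, and for Clec14a and Gja5, with white fat next. Livers of the troglitazone and Elmiron vehicle mice differed in 0 of the 35 genes (limma, and 0 of all genes), with 2 at an unadjusted p below 0.05. Such unadjusted counts, here and below, come without the share of all genes at that cut, so they are a description only. A separate list of 25 other endothelial genes gave 19 higher and 5 lower in brown fat than in liver, when 76.1% of all genes were called (31.7% higher and 44.3% lower). Without mouse 82 it gave 19 and 5, when 76.1% were called. Its lower genes were Flt4, a receptor of lymphatic and sinusoidal endothelium, Calcrl, Sele, Vcam1 and Icam1. White against brown fat gave 9 higher and 6 lower in that list, both with and without mouse 82. Of all genes 57.3% were called with it (28.9% higher and 28.4% lower) and 64.2% without it (30.9% and 33.3%). With all libraries 13 of the 25 were above 0, with a median of 0.05, so the order of the 2 fats did not extend to that list.

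**Figure D2:**
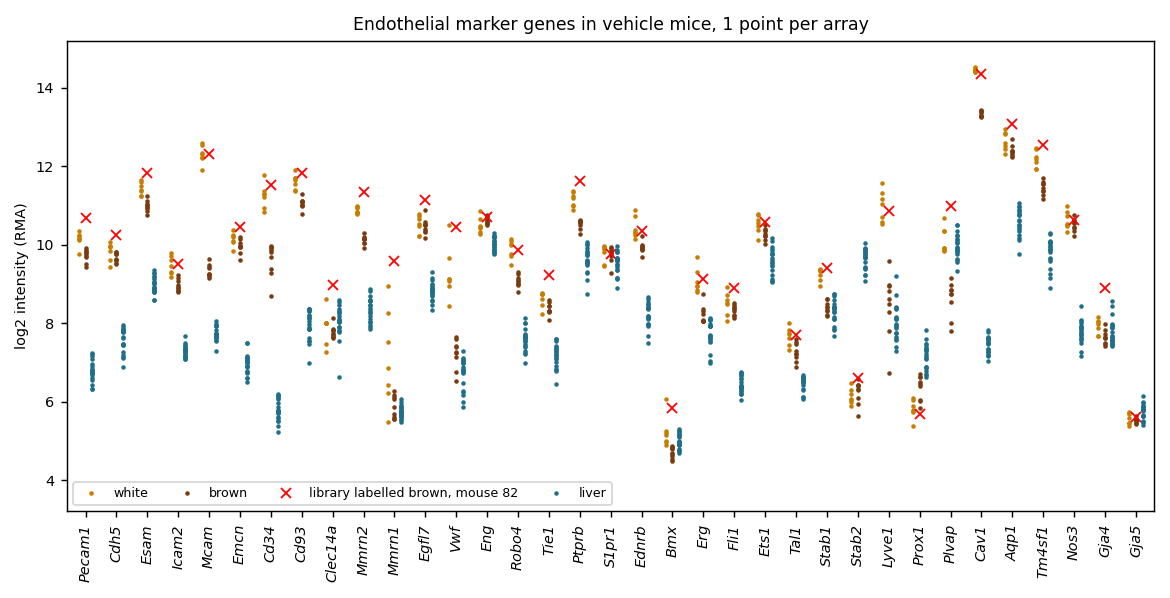
Log2 intensity of each endothelial gene in every vehicle array, with white fat, brown fat and liver side by side within a gene; levels of different genes come from different probes and are not comparable. The library labelled brown fat of mouse 82 is marked by a cross, and most genes are lowest in liver, with Stab2 highest there at 9.07 to 10.05.

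In white fat of fenretinide mice on day 15, 5 of the 35 genes rose and 0 fell, when 3.95% of all genes were called (3.27% higher and 0.682% lower). They were Emcn, Cd93, Clec14a, the matrix protein gene Mmrn2, and Gja4. Change was above 0 for 28 of the 35, with a median of 0.27 against -0.04 over all genes. Vehicle and treated groups were apart without overlap for 16 genes on the higher and 2 on the lower side, when 12.1% and 15.8% of all genes were.

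Emcn was at 10.07, 10.09 and 9.84 in the vehicle mice and at 10.95, 10.70 and 11.15 in the fenretinide mice. Every treated mouse was above every vehicle mouse, and the rise was 0.94 ± 0.18 (SE, log2, adjusted p = 0.0103 by limma), or 1.91-fold. Mmrn2 codes for a matrix protein around vessels that the receptors Cd93 and Clec14a bind. Its values were 10.78, 10.96 and 10.94 with vehicle and 11.65, 11.35 and 11.51 with fenretinide, a rise of 0.61 ± 0.14 (adjusted p = 0.0242). Cd93 had 11.70, 11.64 and 11.37 with vehicle and 13.06, 12.52 and 12.33 with fenretinide, and rose by 1.07 ± 0.24 (adjusted p = 0.0257). Neither gene's groups overlapped. Of the probe sets of Mmrn2 all 4 had a change above 0 and 3 were called, whereas of the 5 of Cd93 4 were above 0, 2 were called and the lowest was -0.34. Clec14a rose by 1.10 ± 0.27 (adjusted p = 0.0412), from 7.75 ± 0.42 to 8.86 ± 0.30 (n = 3 each). The 2 probe sets of Clec14a were above 0 and 1 was called, with the lower change at 0.43. Gja4 rose by 1.12 ± 0.26 (adjusted p = 0.0324), from 7.87 ± 0.19 to 8.99 ± 0.58.

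By role, 1 of the 7 junction and surface genes (Emcn) was called, with 6 above 0 and a median of 0.54. Pecam1 had a change of 0.63 ± 0.20 (adjusted p = 0.104), with all treated mice above all vehicle mice, and Cdh5 one of 0.52 (adjusted p = 0.157). Of the 6 genes for Cd93, Clec14a and secreted or matrix proteins, 3 were called and all were above 0, with a median of 0.88. Egfl7, a secreted protein of sprouting vessels, had 0.70 ± 0.20 (adjusted p = 0.0773), and Mmrn1, the multimerin of platelets and lymphatic endothelium, had 1.40 with vehicle mice spread from 6.22 to 8.27. The 7 receptors and kinases had 0 called and a median of 0.05, and the 4 transcription factor genes had 0 called and a median of 0.20. Of the 25 other endothelial genes, 2 rose, Flt4 by 0.74 ± 0.16 (adjusted p = 0.0212) and Podxl, a sialomucin of vessel linings, by 0.78 ± 0.20 (adjusted p = 0.0431). The median of those 25 was 0.00, and 3.95% of all genes were called.

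The same 3 treated libraries also carried more genes of epithelium. General epithelium genes averaged 9.51 to 10.50 in them and 6.73 to 7.43 in the vehicle mice, and 9 of the 14 were called higher, with a median change of 2.30. Pericyte and smooth muscle genes averaged 11.86 in fenretinide mouse 59 and 9.59 to 10.13 in the other 5 mice, with 0 of 10 called. Adipocyte genes averaged 13.19 to 13.58 in the treated and 13.65 to 13.72 in the vehicle mice, with 0 of 10 changes above 0 and 1 called lower (Pnpla2). Erythroid genes averaged 5.41 to 5.58 and 5.81 to 5.93, with 0 of 6 above 0 and 1 called lower (Hba-a1). Macrophage genes (9.42 to 9.47 treated, 9.32 to 9.81 vehicle) and platelet genes (median change -0.08) had 0 called. The part of these in the endothelial values was not tested. With 3 mice a group the calls were not firm. Leaving out a vehicle mouse gave 1 gene called without mouse 48 (1.98% of all genes), 1 without mouse 49 (2.63%) and 0 without mouse 50 (1.86%). Leaving out a fenretinide mouse gave 1 without mouse 57 (2.37%), 3 without mouse 58 (2.56%) and 6 without mouse 59 (5.62%). Emcn was called in 5 of these 6 fits (adjusted p = 0.0544 in the fit without mouse 50). Array weights called 14 genes when they called 12.0% of all genes, the mean of a gene's probe sets 3 (4.27%) and a fit of the day 15 groups alone 2 (1.92%).

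On day 29 Cd93 rose and 0 genes fell, when 1.34% of all genes were called (0.412% higher and 0.929% lower). Cd93 had 11.38, 11.91, 11.54 and 11.70 in the vehicle mice and 13.11, 12.09, 12.56 and 12.64 in the fenretinide mice. The groups did not overlap, and the rise was 0.97 ± 0.21 (adjusted p = 0.0423 by limma). In a fit over single probe sets, 4 of the 5 of Cd93 were above 0, 1 was called and the lowest was -0.06. The 4 probe sets of Ets1 were above 0 (0.18 to 0.58) and 1 was called there, whereas Ets1 was not called in the fit by gene. The median change of the 35 genes was 0.35, against -0.02 over all genes, and 25 were above 0. The call was lost when any 1 mouse but fenretinide mouse 93 was left out (adjusted p at most 0.106). A further limma fit left out vehicle mouse 86 and fenretinide mice 93 and 95, whose libraries held liver or brown fat genes. In that fit Cd93 had 1.23 ± 0.25 (adjusted p = 0.0731) and 0.264% of all genes were called. Vehicle mouse 85 and fenretinide mouse 91 stayed in, although their brown adipocyte genes were at least as high as in mouse 86. The change of Cd93 without all libraries holding brown fat genes was therefore not tested.

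Eng, a co-receptor for TGF-β ligands, had 10.44, 10.32, 10.28 and 10.48 with vehicle and 11.01, 10.66, 10.86 and 10.69 with fenretinide. All treated mice lay above all vehicle mice, with a change of 0.43 ± 0.10 (adjusted p = 0.0608). Plvap had 10.67, 9.86, 9.92 and 10.34 with vehicle and 9.33, 9.32, 9.35 and 9.25 with fenretinide. The treated values of Plvap were tight and all below the vehicle values, with a change of -0.89 ± 0.21 (adjusted p = 0.0636). Without overlap, 6 genes were higher and 3 lower, when 3.13% and 5.62% of all genes were. The 6 were Emcn (0.60 ± 0.15), Mmrn2 (0.46 ± 0.12), Robo4 (0.77 ± 0.19), a guidance receptor that steadies vessels, Gja4 (0.75 ± 0.23), Cd93 and Eng. Pecam1 had a change of 0.22 and Cdh5 one of 0.49 ± 0.17 (adjusted p = 0.170). Of the 25 other endothelial genes, with a median of 0.32, 2 rose, when 1.34% of all genes were called. These were the transcription factor genes Sox18, by 0.98 ± 0.15 (adjusted p = 0.0143), and Sox17, by 0.91 ± 0.16 (adjusted p = 0.0206). Without the same 3 mice they had 1.01 ± 0.21 (adjusted p = 0.0819) and 1.04 ± 0.18 (adjusted p = 0.0538). General epithelium genes averaged 7.20 to 7.40 in the day 29 fenretinide mice and 7.32 to 7.57 in the vehicle mice. Macrophage genes averaged 9.02 to 9.33 in these treated mice and 9.47 to 9.69 in the vehicle mice, without overlap, with 2 of 12 changes above 0 and 0 called. Adipocyte genes averaged 13.42 to 13.58 and 13.78 to 13.89, also without overlap, with 1 called lower (Lep). Of the 10 pericyte and smooth muscle genes, whose means overlapped, Kcnj8 and Abcc9 were called higher. The part of these in the endothelial values, among them those of Stab1 and Lyve1, was not tested.

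**Figure D3:**
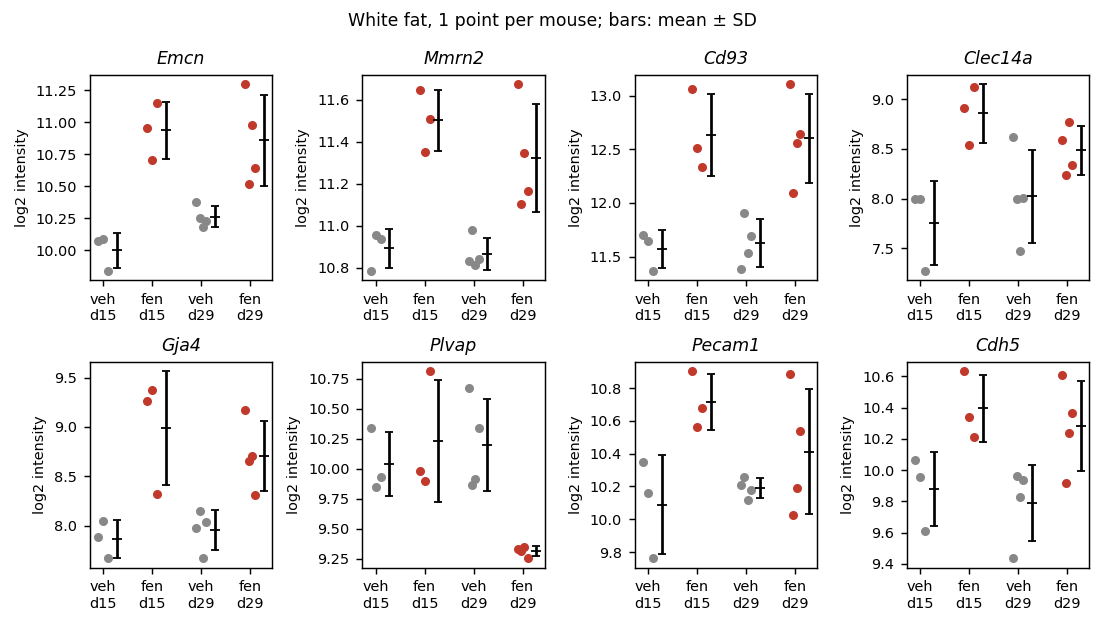
Log2 intensity in white fat by group (vehicle or fenretinide, day 15 or 29), with 1 point per mouse and bars for mean ± SD, for the 5 genes called on day 15, for Plvap and for the junction genes Pecam1 and Cdh5. Emcn, Mmrn2 and Cd93 show every treated mouse above the vehicle mice of its day, and Plvap on day 29 shows 4 treated values from 9.25 to 9.35 below 4 vehicle values from 9.86 to 10.67.

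The change on day 29 differed from that on day 15 in 0 of the 35 genes by limma, when 1.33% of all genes were called, and 4 had an unadjusted p below 0.05. Stab1 had the smallest adjusted p, 0.0646, with a difference of -0.64 ± 0.15. Its vehicle values on day 29 were 9.37, 9.36, 9.35 and 9.34, against 8.84, 9.08, 9.24 and 9.27 with fenretinide. On day 15 the order was the opposite, with 9.09, 9.23 and 8.95 in vehicle and 9.46, 9.39 and 9.60 in treated mice. Lyve1 (-1.16 ± 0.31, adjusted p = 0.0915) and Plvap (-1.08 ± 0.33, adjusted p = 0.141) had differences of the same sign. The rise of Emcn on day 15 and its change on day 29 differed by -0.34 ± 0.24.

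**Figure D4:**
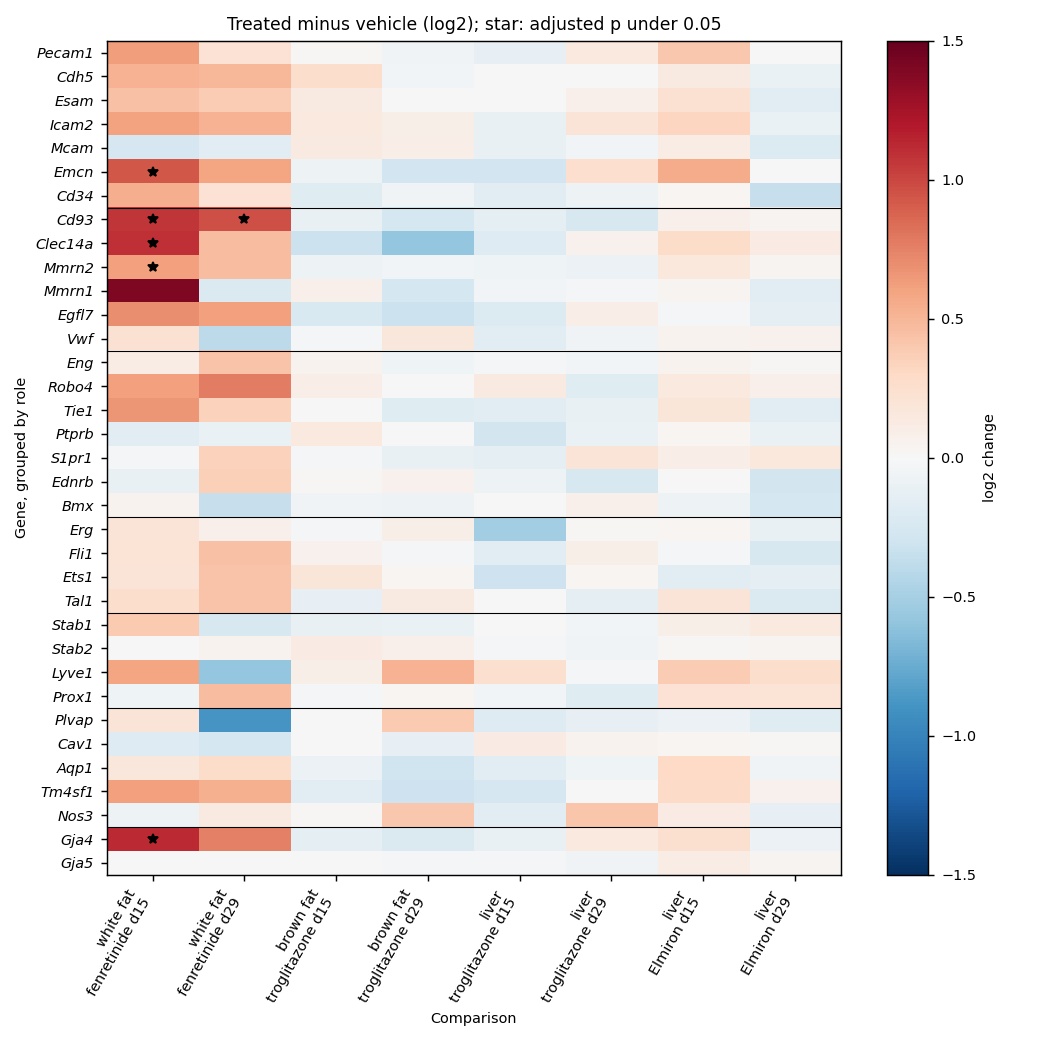
Change of each endothelial gene (rows, grouped by role) in the 8 comparisons of treated with vehicle mice (columns), as log2 treated minus vehicle on the colour scale; stars mark an adjusted p below 0.05. The 6 stars are all in the white fat columns, and the brown fat and liver columns hold changes from -0.58 to 0.56.

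In brown fat of troglitazone mice, 0 of the 35 genes were called on day 15, when 0.0605% of all genes were, and 0 on day 29, when 0.0550% were (limma, with 0 and 3 at an unadjusted p below 0.05). The median changes were -0.00 and -0.04. The smallest adjusted p on day 29 was that of Nos3 (0.41 ± 0.14, adjusted p = 0.530), followed by that of Clec14a (-0.58 ± 0.20, adjusted p = 0.536). Pecam1 and Cdh5 had changes of 0.02 and 0.27 on day 15, and -0.05 and -0.04 on day 29. The 95% intervals of the 35 genes reached from -1.43 to 1.63 on day 29, so for some genes changes up to such bounds were not excluded.

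Without the libraries labelled mouse 82 and mouse 95, Clec14a was called lower on day 29, when 1.09% of all genes were called. Its values were then 7.63, 7.72, 8.13 and 7.86 in the vehicle mice and 7.42, 7.50, 7.19 and 7.26 in the troglitazone mice. The groups did not overlap, with a fall of 0.49 ± 0.10 (adjusted p = 0.0311). On day 15 the groups of Clec14a did not overlap either, with 7.64 to 7.83 in vehicle mice and 7.14 to 7.51 in treated mice, and it was the single gene of the list apart without overlap, when 1.21% of all genes were so on the lower side. In the fit without the 2 libraries that change was -0.32 ± 0.09 (adjusted p = 0.155), and 0 of the 35 genes were called when 0.951% of all genes were. With all libraries the 2 probe sets of Clec14a had changes of -0.32 and -0.05 on day 15 and -0.58 and -0.18 on day 29, with 0 called. The fit without the 2 libraries read the first of these probe sets alone. On day 29 macrophage genes averaged 7.45 to 8.24 in the 4 remaining vehicle mice and 8.07 to 8.71 in the 4 treated ones, and pericyte and smooth muscle genes 9.67 to 10.06 and 9.47 to 9.63. Their part in the value of Clec14a was not tested. Aqp1, a water channel of capillaries, had -0.35 ± 0.08 (adjusted p = 0.0528) and Plvap 0.68 ± 0.18 (adjusted p = 0.0825) on day 29. Pecam1 was at 9.65 ± 0.22 in vehicle and 9.61 ± 0.18 in troglitazone mice (n = 4 each), and the median change of the 35 genes was -0.03.

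Of the 25 other endothelial genes, 0 were called on day 15 in brown fat with all libraries (0.0605% of all genes) and 1, Podxl, on day 29 (0.0550%). Podxl fell on day 29 with all libraries, by 0.66 ± 0.12 (adjusted p = 0.0416), and by 0.71 ± 0.12 without the 2 libraries (adjusted p = 0.00910). In the fit without them 6 of the 25 were called on day 29, 1 higher and 5 lower, when 1.09% of all genes were called. On day 15 that fit called 4 of the 25, with 2 in each direction, when 0.951% of all genes were called. Cldn5, Myct1, Sox7 and Gpihbp1, described next from that fit, were not called with all libraries. Cldn5, the claudin of endothelial tight junctions, lay between 9.23 and 10.34 in the vehicle mice of day 15 and between 10.83 and 11.55 in the troglitazone mice. Its groups did not overlap on either day, with rises of 1.52 ± 0.18 (adjusted p = 2.07e-04) and 1.04 ± 0.20 (adjusted p = 0.0189). Myct1, a gene active in endothelium, fell by 0.68 ± 0.10 on day 15 and by 0.95 ± 0.11 on day 29 (adjusted p = 0.00162 and 4.52e-04). Sox7, a transcription factor gene of the same family as Sox17, fell by 0.44 ± 0.10 and 0.67 ± 0.11 (adjusted p = 0.0394 and 0.00666), and Gpihbp1, which carries lipoprotein lipase into capillaries, rose by 0.35 ± 0.08 on day 15 (adjusted p = 0.0360). With all libraries the day 15 changes of these 4 genes were the same size, with adjusted p = 0.299 for Cldn5, 0.244 for Myct1, 0.956 for Sox7 and 0.9998 for Gpihbp1. On day 29 they were 0.90 ± 0.40 for Cldn5 (adjusted p = 0.767), whose groups then overlapped, -0.74 ± 0.17 for Myct1 (adjusted p = 0.134) and -0.53 ± 0.17 for Sox7 (adjusted p = 0.436). These genes were chosen by a rule for called members of that list, and leaving out the 2 libraries was decided after their marker values were seen.

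In liver of troglitazone mice 0 of the 35 genes were called on day 15, when 0.0220% of all genes were, and 0 on day 29, when 0.115% were (limma, with 2 and 1 at an unadjusted p below 0.05). On day 15 the change was above 0 in 6 genes only, with a median of -0.12 against -0.01 over all genes. Erg, an ETS factor that keeps endothelial genes active, had 8.09, 8.11, 7.70, 8.07 and 7.92 in the vehicle mice and 7.31, 7.76, 7.62, 7.50 and 7.08 in the troglitazone mice. The groups overlapped through vehicle mouse 44 and troglitazone mouse 53, and the change was -0.52 ± 0.14 (adjusted p = 0.634). Ets1, of the same family, had -0.31 ± 0.12 (adjusted p = 0.957). Pecam1 and Cdh5 had -0.13 and -0.00. On day 29 the smallest adjusted p was that of Nos3 (0.42 ± 0.16, adjusted p = 0.430), and the median was -0.02. The 95% intervals of the 35 changes lay within -0.82 and 0.75 on both days. Macrophage genes averaged 8.57 to 9.19 in vehicle and 8.82 to 9.91 in treated livers on day 15 and 8.39 to 9.10 and 8.84 to 9.93 on day 29, with 0 of 12 called, and their part in the endothelial values was not tested.

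In liver of Elmiron mice 0 of the 35 genes were called on day 15, when 0% of all genes were, and 0 on day 29, when 0.00550% were (limma, with 4 and 2 at an unadjusted p below 0.05). On day 15 the change was above 0 in 29 genes, with a median of 0.12 against -0.01 over all genes, and in all 7 junction and surface genes. Emcn had 6.60, 6.60, 7.12, 7.48 and 7.13 in the vehicle mice and 7.48, 7.55, 7.53, 7.92 and 7.23 in the Elmiron mice. The groups overlapped through vehicle mouse 46 and Elmiron mouse 55, and the change was 0.56 ± 0.15 (adjusted p = 0.624). Icam2, an adhesion molecule for leukocytes, had 0.32 ± 0.10 (adjusted p = 0.695) and Pecam1 0.41 ± 0.15 (adjusted p = 0.812), and for both genes the groups overlapped. Cdh5 had 0.13. Macrophage genes averaged 8.75 to 9.31 in these vehicle livers and 9.30 to 9.89 in the treated ones, with 12 of 12 changes above 0, 0 called and a median of 0.51, and their part in the endothelial values was not tested. Of the 25 other endothelial genes 14 were above 0, with a median of 0.02 and 0 called.

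On day 29 of Elmiron 15 of the 35 genes had a change above 0, with a median of -0.09. Cd34 had the smallest adjusted p, with -0.34 ± 0.13 (adjusted p = 0.530), and Pecam1 and Cdh5 had -0.00 and -0.10. Elmiron mouse 92 had the lowest mean of the 35 genes in its group (7.47, against 7.69 to 7.81 in the others) and the highest mean of brown adipocyte genes (8.36, against 7.37 to 7.64). Its part in the result was not tested, and 0 genes were called without it. Set against the vehicle livers of the troglitazone study in place of its own, Elmiron on day 29 gave 2 genes called lower, when 0.231% of all genes were called (0.170% lower).

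**Figure D5:**
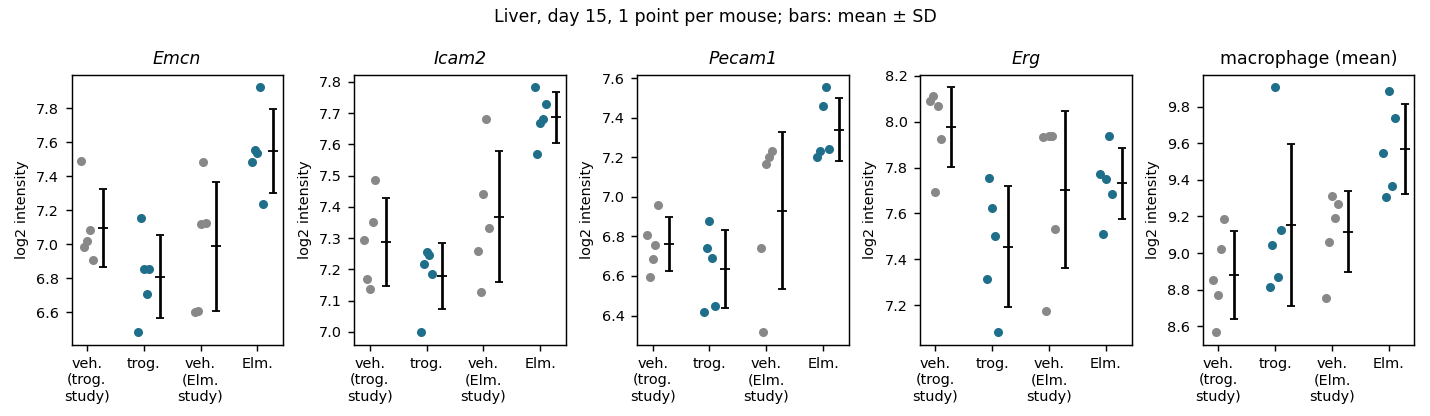
Log2 intensity in liver on day 15 for 4 endothelial genes and for the mean of the macrophage genes, with 1 point per mouse and bars for mean ± SD, in the vehicle and treated mice of the troglitazone and Elmiron studies. Emcn, Icam2 and Pecam1 lie highest in the Elmiron mice, at means of 7.55, 7.69 and 7.34, with vehicle mice of that study reaching into their range.

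Tests of the differences between effects gave no call in the list. Troglitazone minus Elmiron in liver on day 15 was below 0 in 33 of the 35 genes, with a median of -0.22 against -0.01 over all genes, and 0 were called when 0.00550% of all genes were (5 at an unadjusted p below 0.05). Emcn had the largest difference, -0.84 ± 0.21 (adjusted p = 0.521), with a 95% interval from -1.28 to -0.41. On day 29 the median difference was 0.05 and 0 were called (0.0934% of all genes, with 2 of the 35 at an unadjusted p below 0.05). The doses and the vehicle mice differ between these compounds. The change in brown fat minus that in liver of troglitazone mice had 0 of the 35 genes called on day 15, when 0.0220% of all genes were, and 0 on day 29, when 0.0165% were (1 and 2 at an unadjusted p below 0.05). Without the 2 brown libraries 0 of the 35 genes were called on both days (0.115% and 0.269% of all genes), with Plvap at 0.80 ± 0.23 (adjusted p = 0.146) and Clec14a at -0.55 ± 0.18 (adjusted p = 0.244) on day 29. Of the other endothelial genes, Cldn5 had a difference of 1.67 ± 0.23 on day 15 in that fit (adjusted p = 8.69e-05), and one of 1.67 ± 0.43 with all libraries (adjusted p = 0.384). The change on day 29 minus that on day 15 had 0 genes called in brown fat, in liver with troglitazone and in liver with Elmiron, as did 0 of all genes in each (0, 5 and 4 of the 35 at an unadjusted p below 0.05).

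Within groups the endothelial genes varied together to some degree. Deviations from the group means were correlated over the arrays of a tissue for the 595 pairs of genes. The median r was 0.25 in white fat (14 arrays), 0.24 in liver (40 arrays) and 0.71 in brown fat (20 arrays), but 0.17 in brown fat without the libraries labelled mice 82 and 95 (18 arrays). Against all other genes, the medians of the same 35 genes were 0.01, 0.02, -0.09 and 0.02. The points share arrays and their scaling, so these values are a description. In white fat the closest pairs were Vwf with Plvap (r = 0.94) and Cdh5 with Cd93 (r = 0.93), and in liver Ptprb, a phosphatase of endothelial junctions, with Stab1 (r = 0.83). Genes with the highest median r to the others were Cd93 (0.56) in white fat, Pecam1 (0.45) in brown fat without the 2 libraries and Ptprb (0.45) in liver. Stab2 was among the genes least tied to the rest in fat, with -0.34 in white fat, and had 0.39 in liver.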

How the data were processed

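The deposited values are intensity per probe set after RMA, on a linear scale, per the labels and the submitters' processing notes. Which arrays were normalized together, and with which RMA version, is not given in the sources used here. Values ran from 7.44 to 39426, and their log2 was taken. Of 45101 probe sets, 34945 had 1 gene symbol, 932 several, 9160 none and 64 were controls. Every array column was mapped to a sample, and the number of arrays limits the precision. Arrays of 1 group correlated at 0.924 to 0.996 (138 pairs, 0 of them identical); the 8 pairs with the libraries labelled brown fat of mice 82 and 95 reached at most 0.962, and the others at least 0.976. Replicates are different mice by their numbers.

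The test was that of limma (version 3.58.1, under R 4.3.3; lmFit, then eBayes), with the 4 groups of a tissue and study sharing a spread, p-values adjusted by Benjamini-Hochberg over all 18193 genes, and adjusted p below 0.05 called. Tissues were compared over the 37 vehicle arrays, and the effects of 2 tissues or agents over the 40 arrays concerned. Errors of changes are standard errors (SE) of the fit and those of levels are SD. The code was tested on simulated data. Summaries and plots used Python 3.11.15 with pandas 2.3.3, numpy 2.4.6 and matplotlib 3.10.9.

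The 35 genes, their roles and the 11 marker lists were chosen with earlier results of these data known, so no count in them is independent of those results. Named in each comparison were the called genes, Pecam1 and Cdh5, other genes by smallest adjusted p, and called members of the list of other endothelial genes. Other settings were a drop of the dimmer genes, quantile normalization, median centring, the mean of a gene's probe sets, trended and robust eBayes, array weights, the compared groups alone, vehicle livers taken from the other study, a block for the animal, and fits without single arrays or without libraries that held another tissue; those without mice 82 and 95 were added after the data were seen. Brown fat and liver of the troglitazone study share 15 mice by the labels, and their deviations from the group means correlated from -0.135 to 0.151 between the tissues, with 1 mouse over 0.1, and 5 mice matching their own number best.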

Additional observations from a re-analysis of the deposited data

Results flagged for a closer look

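In groups of 4 or 5 mice, a mouse was noted when its gap to the nearest other value was a large share of the group's range (Dixon's 95% limit). Of 56 sets tested this way, 5 stood out, and chance gives about 1 in 20. Over all 490 sets of 1 gene in 1 group, 53 or 10.8% did.

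The mean of the 35 endothelial genes was 10.06 in the library labelled brown fat of vehicle mouse 82 on day 29, against 8.89 to 9.09 in the other 4 mice. In the library labelled brown fat of troglitazone mouse 95 on day 29 it was 9.86, against 8.88 to 9.14. Both are the libraries with low brown adipocyte genes. Brown fat of vehicle mouse 41 on day 15 had a mean of 9.22, against 9.06 to 9.09 in the other mice. Clec14a was at 7.14 in brown fat of troglitazone mouse 54 on day 15, against 7.44 to 7.51. Ets1 was at 9.45 in liver of troglitazone-study vehicle mouse 44 on day 15, against 9.75 to 9.84.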

How the results depend on the processing

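Counts of endothelial genes called moved by over 1.5 times, or from or to 0, in 24 alternative fits and stayed within that in 131. The cause was not tested unless stated. On day 15 of fenretinide the 5 genes called became 3 with the mean of a gene's probe sets, 14 with array weights, 2 in a fit of the compared groups alone, and 0 to 6 when single mice were left out, where fewer mice enter. On day 29 the 1 gene called became 2 without the dimmer genes (2.40% of the genes tested), 5 with quantile normalization (1.51% of all genes called), 0 with the mean of probe sets, 0 in the compared groups alone, 0 without vehicle mouse 86 and fenretinide mice 93 and 95, and 0 to 1 when single mice were left out. For troglitazone in brown fat, array weights called 1 gene on day 15 (Cdh5, 1.76% of all genes) and 1 on day 29 (0.934%), and the fit without mice 82 and 95 called 1 on day 29 (Clec14a). For Elmiron on day 29 the vehicle livers of the other study gave 2. In all brown fat and liver comparisons of treated with vehicle mice, leaving out single mice called 0 genes.

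Directions turned in changes that were not called, near 0 but for Ednrb; ranges in parentheses are over fits without single mice. Cdh5 in brown fat on day 29 was 0.00722 with quantile normalization and 0.0770 with the mean of probe sets (-0.221 to 0.0608), and Pecam1 there ranged only by mouse (-0.249 to 0.153, and -0.0113 to 0.0523 on day 15). Cdh5 in liver with troglitazone on day 15 was 0.00348 with median centring, 0.00524 with the mean of probe sets and 0.00177 with array weights (-0.0361 to 0.0625). On day 29 it was 0.0156 with quantile normalization, 0.18 with the mean of probe sets and 0.41 with the other study's vehicle livers (-0.127 to 0.0538), with which Ednrb was at 0.34 against -0.24 with its own. With Elmiron on day 29 Pecam1 was 0.00642 with quantile normalization and 0.0385 with array weights (-0.0927 to 0.0591), and Cdh5 was 0.0224 with array weights (-0.191 to 0.0495).

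With the animal as a replicate block, the brown minus liver difference in vehicle mice called 29 genes (25 higher, 4 lower), and the troglitazone change in brown fat minus liver called 0 on both days, as without the block, which changed no other call.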
